A study of Mus musculus with 30 samples.

Results

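The genes described here are the class IIa histone deacetylases Hdac4, Hdac5, Hdac7 and Hdac9, the myocyte enhancer factor 2 genes Mef2a, Mef2c and Mef2d, and the co-repressor gene Dach2, in RNA sequencing of mouse soleus. They were chosen by name, as the rows of the count table whose Ensembl identifier carries one of these 8 symbols: 8 of the 56980 genes in the table, and 8 of the 16932 genes with enough counts to be tested. The soleus is a postural calf muscle rich in slow fibres. The 30 libraries, taken as 1 per mouse, came from C57BL/6J mice aged 3 to 4 months, of both sexes. Controls carried floxed alleles of AMPKalpha1 and AMPKalpha2, the catalytic subunits of AMP-activated protein kinase (AMPK), and no Cre. The mKO mice were muscle-specific double knockouts of both genes, and the labels do not name the Cre driver. Mice were either ambulatory (AMB) or hindlimb unloaded (HU) for 4 weeks. This gave 8 AMB Ctrl mice (5 female), 7 AMB mKO mice (2 female), 7 HU Ctrl mice (3 female) and 8 HU mKO mice (5 female).

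Class IIa histone deacetylases bind MEF2 factors on DNA and hold their target genes off. Kinases such as CaMKII, protein kinase D, the salt-inducible kinases and AMPK phosphorylate them, whereupon 14-3-3 proteins retain them in the cytoplasm and MEF2 is released. In slow muscle this switch is linked to the slow, oxidative gene programme. After nerve loss, HDAC4 accumulates, represses Dach2, and so lifts a brake on myogenin and the acetylcholine receptor genes.

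Depth ran from 12083400 to 20895300 counts per library, and every library matched its labelled sex. Prkaa2, which encodes the main catalytic AMPK subunit of muscle, fell in mKO mice, from 213 ± 28.3 to 60.3 ± 26.3 CPM (counts scaled to library size; mean ± SD, n = 8 and 7) in ambulatory mice and from 254 ± 73.2 to 80.1 ± 18.5 CPM (n = 7 and 8) in unloaded mice. Prkaa1 measured 20.99 ± 2.74 and 17.2 ± 9.03 CPM in ambulatory controls and mKO mice and did not pass the test. The ambulatory fall of Prkaa2 had a log2 of -1.89 (edgeR adjusted p = 0.000367), and did not pass with the compared groups alone (adjusted p = 0.0630). One library, AMB mKO replicate 2, stood apart. Its 12 muscle fibre markers summed to 9647 CPM, against 98171 to 341340 CPM in the other 29. Its 8 adipocyte markers summed to 9365 CPM, against 113 to 2261 CPM. Values without this library are given beside many of the results that it moved. In whole muscle, fewer cells of a type and less RNA per cell cannot be told apart.

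The sequences just upstream of 3 of the genes are shown first: Hdac4 and Mef2a because their transcripts rose with unloading, and Hdac5 because it is the member with a match to the MEF2 consensus site. All 8 genes matched a RefSeq entry of build GRCm38.p6, with 15 annotated starts between them; the counts do not say which start was used. Each sequence is the 250 bases before the start, printed 5′ to 3′ on the gene's own strand. Capitals mark GC boxes (GGGCGG), E-boxes (CANNTG) and the MEF2 consensus site, searched on both strands.

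Hdac4 (chr1:92180342-92180591, minus strand): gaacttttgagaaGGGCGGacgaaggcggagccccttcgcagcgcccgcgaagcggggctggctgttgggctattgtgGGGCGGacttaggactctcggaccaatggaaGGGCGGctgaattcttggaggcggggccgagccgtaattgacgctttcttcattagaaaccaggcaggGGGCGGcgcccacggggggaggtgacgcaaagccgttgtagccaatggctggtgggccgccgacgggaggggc
Mef2a (chr7:67372859-67373108, minus strand): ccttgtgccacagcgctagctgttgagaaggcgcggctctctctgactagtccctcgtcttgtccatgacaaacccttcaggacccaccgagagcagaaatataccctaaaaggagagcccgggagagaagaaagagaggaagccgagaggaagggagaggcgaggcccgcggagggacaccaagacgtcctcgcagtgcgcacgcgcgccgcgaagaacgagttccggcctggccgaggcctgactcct
Hdac5 (chr11:102230173-102230422, minus strand): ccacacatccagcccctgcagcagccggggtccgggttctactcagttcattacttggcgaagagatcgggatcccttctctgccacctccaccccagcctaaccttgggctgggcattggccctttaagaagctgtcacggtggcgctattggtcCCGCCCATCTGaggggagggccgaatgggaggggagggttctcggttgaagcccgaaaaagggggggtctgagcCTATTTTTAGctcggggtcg

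The Hdac4 window holds 4 GC boxes, no E-box and no MEF2 site, with 65.2% G or C. The Mef2a window holds none of the 3 motifs. In Hdac5 the MEF2 site lies 20 to 11 bases before the start, and a GC box and an E-box overlap by 1 base between 94 and 84 bases before it. Among 32841 mouse promoters of the same length, 32.7% hold a GC box, 66.2% an E-box and 2.92% a MEF2 site. A match is a description of the letters, not evidence of binding.

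The 8 genes covered a wide range of transcript levels. Levels between genes are compared here per kilobase of exon (CPM per kb). In ambulatory controls Mef2d was highest, at 51.8 ± 9.05 CPM per kb (n = 8), followed by Mef2c at 33.8 ± 6.43, and their ranges overlapped (39.3 to 67.0 and 26.5 to 42.0). Hdac5 came next at 15.3 ± 3.06 CPM per kb, above all 3 genes that follow in every ambulatory control. Mef2a at 8.30 ± 0.854, Hdac7 at 8.29 ± 1.16 and Hdac4 at 7.26 ± 1.85 CPM per kb had overlapping ranges. Hdac9 at 1.69 ± 0.365 and Dach2 at 0.882 ± 0.318 CPM per kb were lowest and overlapped as well. In unloaded mKO mice Hdac4 followed the MEF2 pair, at 18.6 ± 3.32 CPM per kb (n = 8), with a range of 12.6 to 22.5 that overlapped that of Hdac5 (10.2 to 19.5). Of the paralogues outside the 8, Mef2b measured 0.540 ± 0.159 CPM in ambulatory controls and Dach1 7.49 ± 2.16 CPM (n = 8).

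**Figure D1:**
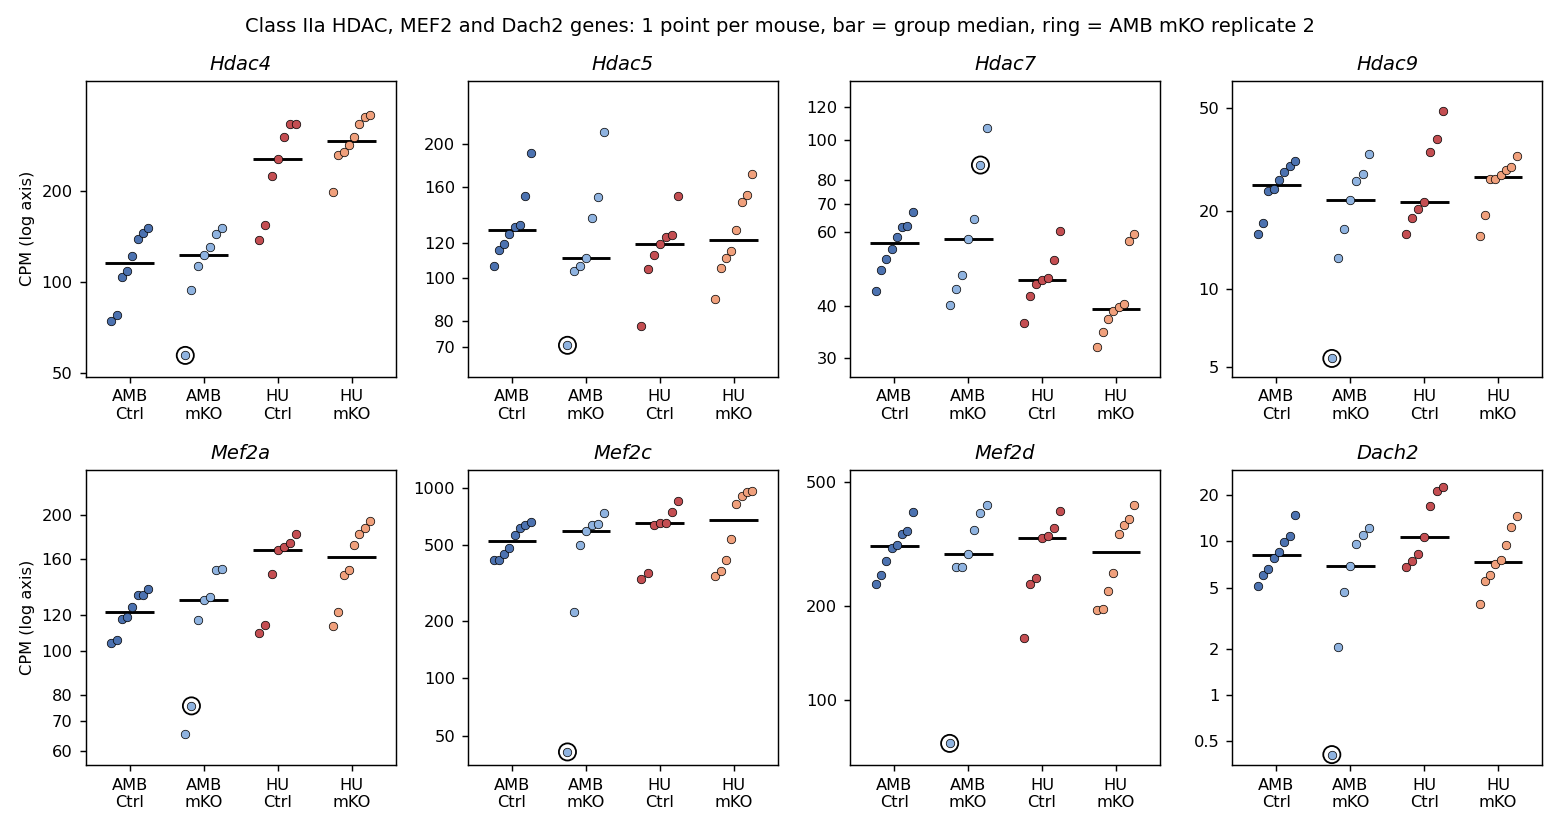
Normalised CPM of the 8 genes (vertical log axes) in each mouse of the 4 groups; bars are group medians and the ring marks AMB mKO replicate 2. Hdac4 is higher in unloaded mice of both genotypes, with an overlap in controls only, and with medians of 115, 123, 255 and 293 CPM in AMB Ctrl, AMB mKO, HU Ctrl and HU mKO.

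Unloading raised Hdac4 in both genotypes. HDAC4 is the member most closely tied to muscle disuse and nerve loss. Hdac4 ran from 74.0 to 150 CPM (median 115) in ambulatory controls and from 138 to 333 CPM (median 255) in unloaded controls. In 6 of 7 unloaded controls it lay above every ambulatory control. Ambulatory mKO mice ran from 57.0 to 151 CPM (median 123) and unloaded mKO mice from 199 to 355 CPM (median 293). All 8 unloaded mKO mice lay above all 7 ambulatory mKO mice, a separation that 1.13% of tested genes showed in that direction. The fitted change was 2.10-fold in controls (log2 1.07 ± 0.20 SE, edgeR adjusted p = 0.000924) and 2.72-fold in mKO mice (log2 1.45 ± 0.21 SE, edgeR adjusted p = 0.000219), and 1.33 on the log2 scale in mKO mice without AMB mKO replicate 2.

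Among the 8 genes Hdac4 alone passed in controls, where 11.1% of tested genes were called and 5.37% rose. In mKO mice Hdac4 rose and Hdac7 fell, where 10.1% of tested genes were called, 5.3% higher and 4.75% lower. Averaged over the 2 genotypes 3 of the 8 passed, against 28.5% of all tested genes. Hdac4 and Mef2a rose, as did 14.2% of tested genes, and Hdac7 fell, as did 14.3%. The median change of the 8 was a log2 of 0.17 in controls and 0.37 in mKO mice, beside 0.03 and -0.04 over all tested genes. Leaving out AMB mKO replicate 2, it was 0.21 in controls and 0.14 in mKO mice, beside 0.03 in each over all tested genes.

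**Figure D2:**
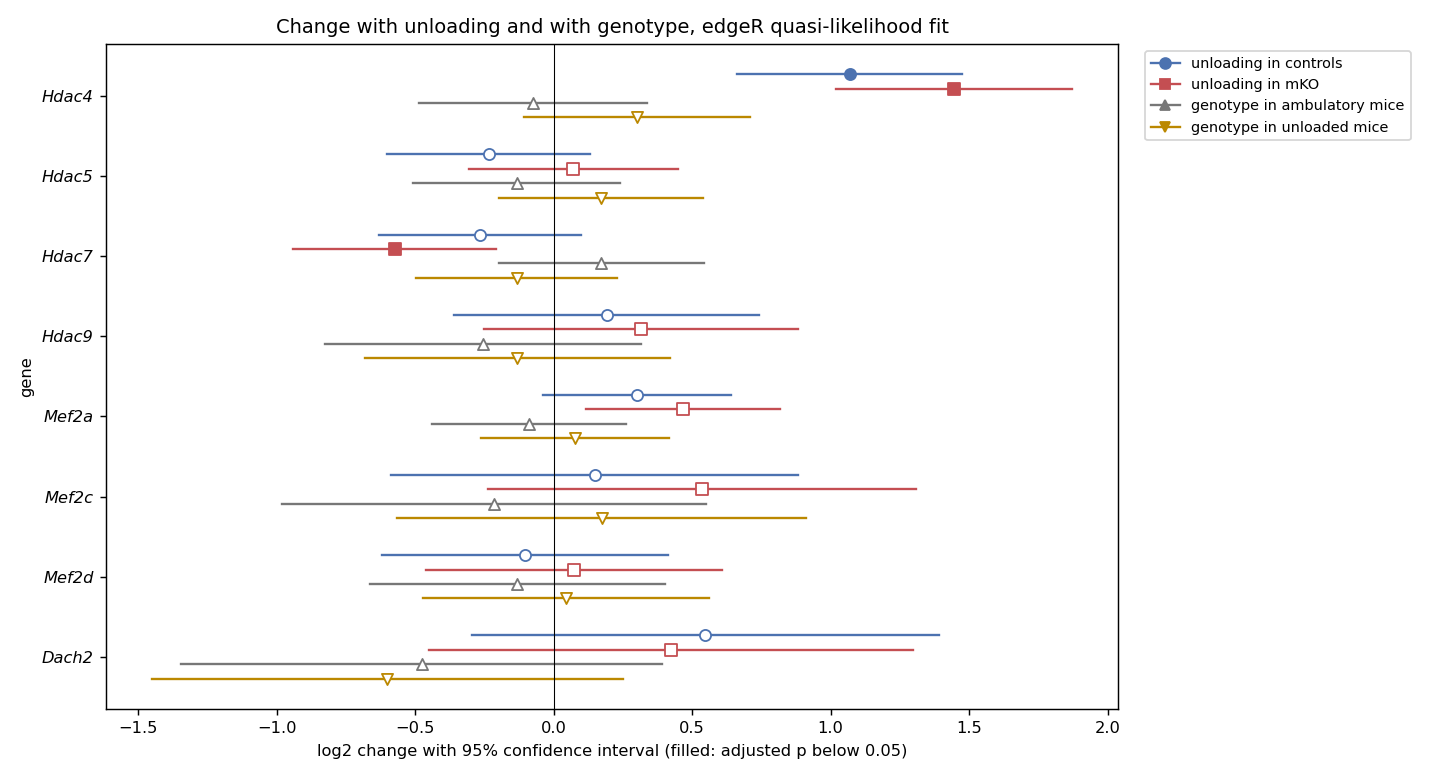
Log2 change of each gene with its 95% confidence interval (horizontal axis) for unloading in each genotype and for genotype in each loading state; filled symbols have an adjusted p below 0.05. The intervals of Hdac4 lie above 0 for unloading in both genotypes, whereas no interval for genotype excludes 0.

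Hdac7, a member prominent in blood vessel endothelium, went the other way. It ran from 43.3 to 67.2 CPM (median 56.5) in ambulatory controls and from 36.2 to 60.6 CPM (median 46.2) in unloaded controls, with overlapping ranges and a log2 change of -0.27 ± 0.18 SE (edgeR adjusted p = 0.356). Ambulatory mKO mice ran from 40.1 to 106 CPM (median 57.8) and unloaded mKO mice from 31.8 to 59.4 CPM (median 39.3). In 5 of 8 unloaded mKO mice Hdac7 lay below every ambulatory mKO mouse, and the log2 change was -0.57 ± 0.18 SE (edgeR adjusted p = 0.0400). The 2 highest ambulatory mKO values, 106 and 87.0 CPM, belonged to replicates 4 and 2.

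The Hdac7 call within mKO mice ended without AMB mKO replicate 2 (log2 -0.42, edgeR adjusted p = 0.133) and without AMB mKO replicate 4 (log2 -0.44, edgeR adjusted p = 0.106). It also ended on leaving out AMB mKO replicate 5 (adjusted p = 0.0531) or HU mKO replicate 1 (adjusted p = 0.0728), 2 (0.0565), 5 (0.0916), 6 (0.0681), 7 (0.0538) or 8 (0.0698). Averaged over genotypes Hdac7 fell, by 0.42 on the log2 scale (± 0.12 SE, edgeR adjusted p = 0.0119). That call held with each of the 30 libraries left out in turn, and was lost with AMB mKO replicates 2 and 4 left out together (log2 -0.24, adjusted p = 0.0838).

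Endothelial markers were lower in unloaded mice as well. Of 12 endothelial markers 4 fell and none rose with unloading in controls, 1 fell in mKO mice, and 6 fell averaged over genotypes. Of all tested genes 11.1% were called in controls in either direction, while 4.75% fell in mKO mice and 14.3% averaged over genotypes. The median log2 change of the 12 averaged over genotypes was -0.28 against -0.01 over all tested genes. That median was -0.41 in controls, where Hdac7 stood at -0.27, and -0.18 in mKO mice, where Hdac7 stood at -0.57. Both values in mKO mice come from a fit that includes AMB mKO replicate 2. The interaction of genotype and unloading passed neither for Hdac7 (log2 -0.31 ± 0.26 SE, edgeR adjusted p = 0.999) nor for any of the 12. Kdr, the main receptor for vascular endothelial growth factor, fell by 0.96 on the log2 scale (± 0.12 SE, edgeR adjusted p = 1.04e-06) averaged over genotypes. The summed level of the 12 ran from 757 to 1130 CPM in AMB Ctrl, 636 to 891 in AMB mKO, 626 to 838 in HU Ctrl and 604 to 891 in HU mKO. None of the 12 was at 0 in any library. AMB mKO replicate 2 had the lowest sum of its group (636 CPM) and its next-to-highest Hdac7 (87.0 CPM). Their part in the change of Hdac7 was not tested.

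Among the MEF2 genes, Mef2a, a broadly expressed muscle transcription factor, shifted upward by a smaller amount. It ran from 104 to 137 CPM (median 122) in ambulatory controls and from 109 to 181 CPM (median 168) in unloaded controls, where 5 of 7 lay above all ambulatory controls. Ambulatory mKO mice ran from 65.6 to 152 CPM (median 129) and unloaded mKO mice from 114 to 194 CPM (median 162), where 4 of 8 lay above all ambulatory mKO mice. The ranges overlapped in both genotypes. Neither change passed alone, at a log2 of 0.30 ± 0.17 SE (edgeR adjusted p = 0.250) and 0.47 ± 0.17 SE (edgeR adjusted p = 0.0765). Averaged over genotypes Mef2a rose 1.31-fold (log2 0.38 ± 0.12 SE, edgeR adjusted p = 0.0138), a call that held with each of the 30 libraries left out in turn.

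Mef2c, the member needed for sarcomere gene expression, varied widely among mice and passed in no comparison. It ran from 417 to 660 CPM in AMB Ctrl, 41.2 to 735 in AMB mKO, 331 to 846 in HU Ctrl and 345 to 955 in HU mKO. The log2 change with unloading was 0.15 ± 0.36 SE in controls and 0.54 ± 0.38 SE in mKO mice. The lowest value, 41.2 CPM, was AMB mKO replicate 2, without which the mKO change was 0.26. Mef2d, the highest of the 3 per kilobase, had group means of 310 ± 54.1, 296 ± 116, 296 ± 84.7 and 297 ± 89.9 CPM in AMB Ctrl, AMB mKO, HU Ctrl and HU mKO (n = 8, 7, 7 and 8). Its log2 change was -0.10 ± 0.26 SE in controls and 0.07 ± 0.26 SE in mKO mice, the latter -0.13 without AMB mKO replicate 2. Without that library the AMB mKO mean of Mef2d was 333 ± 67.6 CPM (n = 6).

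Hdac5, a class IIa deacetylase phosphorylated by AMPK, had group means of 134 ± 26.8, 128 ± 45.8, 117 ± 22.7 and 128 ± 27.6 CPM in the same order. Its log2 change with unloading was -0.23 ± 0.18 SE in controls and 0.07 ± 0.19 SE in mKO mice, the latter -0.038 without AMB mKO replicate 2. Without that library the AMB mKO mean of Hdac5 was 137 ± 41.9 CPM (n = 6). Hdac9, a class IIa deacetylase and itself a MEF2 target, averaged 24.8 ± 5.35, 20.7 ± 9.49, 28.3 ± 12.2 and 25.9 ± 5.47 CPM. Its log2 changes were 0.19 ± 0.27 SE and 0.32 ± 0.28 SE, the latter 0.11 without AMB mKO replicate 2. For these genes the 95% intervals still allowed a change of -0.60 to 0.13 (Hdac5) and -0.36 to 0.74 (Hdac9) in controls.

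Dach2, the repressed gene in the nerve-loss circuit, was the lowest of the 8. It averaged 8.70 ± 3.14 CPM in AMB Ctrl, 6.71 ± 4.54 in AMB mKO, 13.4 ± 6.70 in HU Ctrl and 8.35 ± 3.68 in HU mKO. Its log2 change with unloading was 0.55 ± 0.41 SE in controls (edgeR adjusted p = 0.423) and 0.42 ± 0.43 SE in mKO mice (edgeR adjusted p = 0.547), the latter 0.17 without AMB mKO replicate 2. Thus Hdac4 was higher in unloaded muscle while Dach2 passed in neither direction. Between genotypes Dach2 had the lowest fitted value of the 8, with a log2 of -0.48 ± 0.42 SE in ambulatory and -0.60 ± 0.41 SE in unloaded mice. Averaged over loading it was -0.54 ± 0.29 SE (unadjusted p = 0.0747, edgeR adjusted p = 0.875). The ambulatory value was -0.22 without AMB mKO replicate 2, in which Dach2 measured 0.407 CPM.

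Between genotypes none of the 8 genes passed in either loading state by edgeR, DESeq2 or limma, where 0.0177% of tested genes, 3 in each state, were called by edgeR. None of the 8 had an unadjusted p below 0.05, against 1291 of all tested genes in ambulatory and 301 in unloaded mice. The fitted log2 changes ran from -0.48 to 0.17 in ambulatory mice and from -0.60 to 0.30 in unloaded mice. For Hdac4 the unloaded difference was 0.30 ± 0.20 SE (95% interval -0.11 to 0.71), so the data still allow a 1.63-fold higher level in unloaded mKO mice.

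The interaction asks whether unloading acted differently in the 2 genotypes. It was 0.38 ± 0.29 SE for Hdac4 on the log2 scale (95% interval -0.21 to 0.96), -0.31 ± 0.26 SE for Hdac7 and 0.17 ± 0.24 SE for Mef2a. None of the 8 passed (edgeR adjusted p = 0.999 for each). These values come from a fit that includes AMB mKO replicate 2. With AMB mKO replicates 2 and 4 left out together, the interaction changed sign for Hdac7 (0.056) and for Mef2a (-0.072). Over all tested genes edgeR called 0 interactions, with 410 at an unadjusted p below 0.05, and both DESeq2 and limma called 0 as well. No member passed between females and males, where 0.213% of tested genes were called. Hdac4 was nearest, at -0.29 ± 0.14 SE on the log2 scale in females against males (unadjusted p = 0.0530, edgeR adjusted p = 0.403).

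Sample titles finish in a letter, a, b or c, whose meaning no label gives, and each group holds all 3. Differences within letters are between means of log2 CPM, with no term for sex. The shares of females differed between the compared groups within letters. Within letters Hdac4 was higher in unloaded mice each time: by 1.18, 1.14 and 1.01 on the log2 scale in controls of letters a, b and c, and by 1.24, 1.21 and 1.86 in mKO mice. The last value was 1.50 without AMB mKO replicate 2, a letter c library. Mef2a differed by 0.58, 0.52 and -0.05 in controls and by 0.85, 0.46 and 0.26 in mKO mice. Hdac7 differed by -0.46, -0.46 and 0.05 in controls and by -0.82, -0.49 and -0.40 in mKO mice. The letter c values of mKO mice rested on 2 ambulatory libraries. They changed sign without AMB mKO replicate 2, to -0.24 for Mef2a and 0.16 for Hdac7, against the 1 library left, which came from a male.

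**Figure D3:**
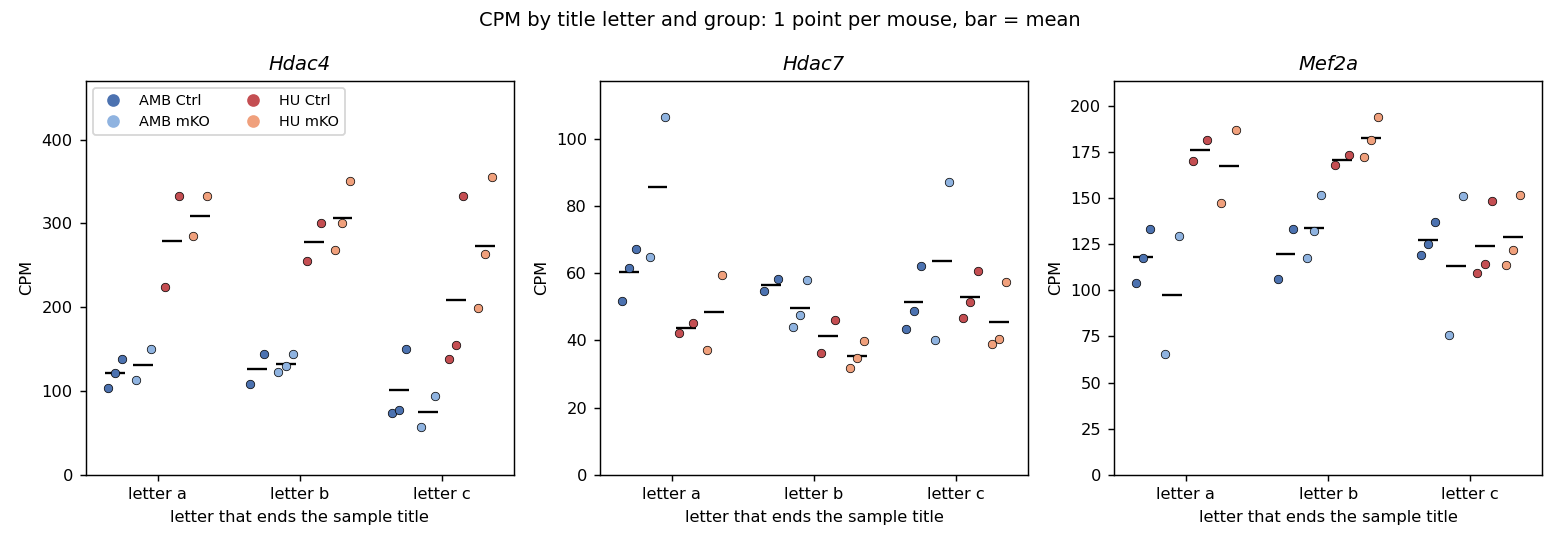
CPM of Hdac4, Hdac7 and Mef2a (vertical axes from 0) by the letter that ends the sample title, with 1 point per mouse and bars at the mean. For Hdac4 the unloaded mean lies above the ambulatory mean in every letter, by 1.01 to 1.86 on the log2 scale, although single values of letter c controls overlap.

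Letter c libraries also differed from the rest in level. In a fit with the letter as a term, compared after the data were seen, Mef2d (-0.73 ± 0.13 SE on the log2 scale), Hdac9 (-0.68 ± 0.16), Mef2c (-0.66 ± 0.23), Hdac5 (-0.46 ± 0.10) and Hdac4 (-0.41 ± 0.12) were lower in letter c than in the mean of a and b (edgeR adjusted p = 0.000392, 0.00238, 0.0307, 0.00208 and 0.0139). These 5 of 8 compare with 30.7% of tested genes called. AMB mKO replicate 2 held the lowest of all 30 values for each of the 5. Without it the same 5 passed, at -0.60 (Mef2d), -0.55 (Hdac9), -0.50 (Mef2c), -0.40 (Hdac5) and -0.34 (Hdac4), with edgeR adjusted p of 0.000112, 0.00347, 0.0280, 0.00492 and 0.0340, when 26.3% of tested genes were called. Hdac7 (0.06), Mef2a (-0.22) and Dach2 (-0.29) did not pass. Against letter a alone, with all libraries, Hdac5 and Mef2d passed (edgeR adjusted p = 0.0371 and 0.0187), when 6.64% of tested genes were called. Hdac4, Hdac9 and Mef2c did not pass against letter a (edgeR adjusted p = 0.205, 0.0854 and 0.426). Unloaded mice, where AMB mKO replicate 2 plays no part, are given as examples. Mef2d ran from 159 to 247 CPM in the 6 unloaded letter c libraries and from 256 to 422 CPM in the 9 of letters a and b. Mef2c in unloaded mKO mice ran from 345 to 415 CPM in letter c and from 541 to 955 CPM in the others. What the letters stand for was not tested.

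The genes that act with the class IIa deacetylases and MEF2 were described by lists. Averaged over genotypes 28.5% of all tested genes were called (14.2% higher and 14.3% lower), the background of each averaged count that follows. Counts within controls and within mKO mice have backgrounds of 11.1% and 10.1%. For counts without AMB mKO replicate 2 the background is 34.1% averaged over genotypes, 15.7% in controls and 13.5% in mKO mice. In the list of 20 kinases that phosphorylate these proteins, 2 rose and 1 fell averaged over genotypes, a share below 28.5%. The median log2 change of the 20 was 0.12 against -0.01 over all tested genes. Prkd2, a protein kinase D that drives class IIa deacetylases out of the nucleus, fell by 0.47 on the log2 scale (± 0.10 SE, edgeR adjusted p = 0.000836). It went from 17.7 ± 2.76 to 13.2 ± 2.74 CPM in controls and from 16.8 ± 3.89 to 11.5 ± 2.00 CPM in mKO mice. It was the 1 kinase called within each genotype, at -0.44 (adjusted p = 0.0455) in controls and -0.51 (adjusted p = 0.0258) in mKO mice. Those calls held in 14 and 28 of the 30 fits that left out 1 library, and the mKO value without AMB mKO replicate 2 was -0.38 (adjusted p = 0.104). Camk2a rose by 0.72 ± 0.21 SE (edgeR adjusted p = 0.0110) and Camk2d by 0.21 ± 0.07 SE (edgeR adjusted p = 0.0231), the latter in 21 of the 30 such fits. Both encode subunits of CaMKII. Without AMB mKO replicate 2, 4 kinases rose and 1 fell averaged over genotypes, and none passed in mKO mice.

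Of 8 genes for 14-3-3 proteins and nuclear export, 3 fell averaged over genotypes and none rose, against 14.3% and 14.2% of all tested genes. These were the 14-3-3 genes Ywhag (-0.50 ± 0.13 SE, edgeR adjusted p = 0.00437) and Ywhah (-0.24 ± 0.07 SE, edgeR adjusted p = 0.0106), and the exportin gene Xpo1 (-0.22 ± 0.08 SE, edgeR adjusted p = 0.0493). The Xpo1 call held in 14 of 30 such fits. The list's median was -0.23 against -0.01. Within controls Ywhah alone passed (-0.38, edgeR adjusted p = 0.0154), and in mKO mice none did. Without AMB mKO replicate 2, 2 of the 8 fell in controls.

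Of 15 corepressors and other deacetylases, 3 rose averaged over genotypes and none fell, against 14.2% and 14.3% of all tested genes, with a median of 0.12 against -0.01. Suv39h1, a histone H3 lysine 9 methyltransferase, rose by 0.40 ± 0.08 SE (edgeR adjusted p = 0.000593), Gps2, a subunit of the NCoR and SMRT corepressor complex, by 0.40 ± 0.12 SE (edgeR adjusted p = 0.0176), and the class I deacetylase Hdac2 by 0.26 ± 0.08 SE (edgeR adjusted p = 0.0171). Suv39h1 was the 1 gene called in controls (0.49, adjusted p = 0.00746). Gps2 was the 1 called in mKO mice (0.56, adjusted p = 0.0457), in 8 of the 30 fits that left out 1 library and not without AMB mKO replicate 2 (0.53, adjusted p = 0.0560). Without AMB mKO replicate 2, 5 of the 15 rose averaged over genotypes and 3 in controls, when 5813 and 2685 genes were called in all.

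Of 15 MEF2 coactivators and partners, 2 rose and 1 fell averaged over genotypes, a share below the 28.5% of all tested genes, with a median of 0.12 against -0.01. Vgll2, a TEAD cofactor of skeletal muscle, fell from 166 ± 22.2 to 42.8 ± 25.6 CPM in controls and from 123 ± 63.0 to 39.8 ± 15.5 CPM in mKO mice. The log2 changes were -1.97 (edgeR adjusted p = 0.00236) and -1.62 (edgeR adjusted p = 0.0120). The mKO call was lost without AMB mKO replicate 1 (log2 -1.30, adjusted p = 0.0586). The acetyltransferase gene Crebbp rose by 0.35 ± 0.08 SE and the arginine methyltransferase gene Carm1 by 0.43 ± 0.13 SE averaged over genotypes (edgeR adjusted p = 0.00100 and 0.0120). Within mKO mice Crebbp also passed (0.38, adjusted p = 0.0276), in 26 of the 30 fits that left out 1 library.

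Of 19 genes known as MEF2 targets, 5 fell and 1 rose averaged over genotypes, where 14.3% and 14.2% of all tested genes did. Together that is a share near the 28.5% of all tested genes called. The list's median was -0.19 against -0.01 over all tested genes. Xirp1, an actin-binding protein of muscle attachment sites, fell from 883 ± 203 to 262 ± 95.6 CPM in controls and from 756 ± 374 to 268 ± 84.2 CPM in mKO mice (log2 -1.80 and -1.42, edgeR adjusted p = 0.00294 and 0.0189). The mKO call was lost without AMB mKO replicate 1 (log2 -1.25, adjusted p = 0.0604). Ppargc1a, which encodes the mitochondrial coactivator PGC-1alpha, fell by 1.46 on the log2 scale (± 0.32 SE, edgeR adjusted p = 0.00130) averaged over genotypes. In ambulatory controls it ran from 67.0 to 485 CPM and in unloaded controls from 46.2 to 88.2 CPM, at a log2 change of -1.62 (adjusted p = 0.0232). That control call was lost without AMB Ctrl replicate 1 (log2 -1.21, adjusted p = 0.0786).

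The other MEF2 targets called averaged over genotypes were the slow troponin gene Tnni1 (-0.94 ± 0.32 SE, edgeR adjusted p = 0.0272), the transcription factor genes Jun (-0.46 ± 0.13 SE, edgeR adjusted p = 0.00806) and Klf4 (-0.33 ± 0.13 SE, edgeR adjusted p = 0.0485), and the nuclear receptor gene Nr4a1, which rose (0.60 ± 0.22 SE, edgeR adjusted p = 0.0430). The Klf4 and Nr4a1 calls held in 12 and 10 of the 30 fits that left out 1 library. Hdac9, a member of this list, did not pass. Within controls 3 of the 19 fell (6 without AMB mKO replicate 2) and within mKO mice 1 fell (4 without it). Averaged over genotypes 8 fell and 1 rose without that library. Klf4 and Nr4a1 were named beyond the naming rule, to complete the count.

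**Figure D4:**
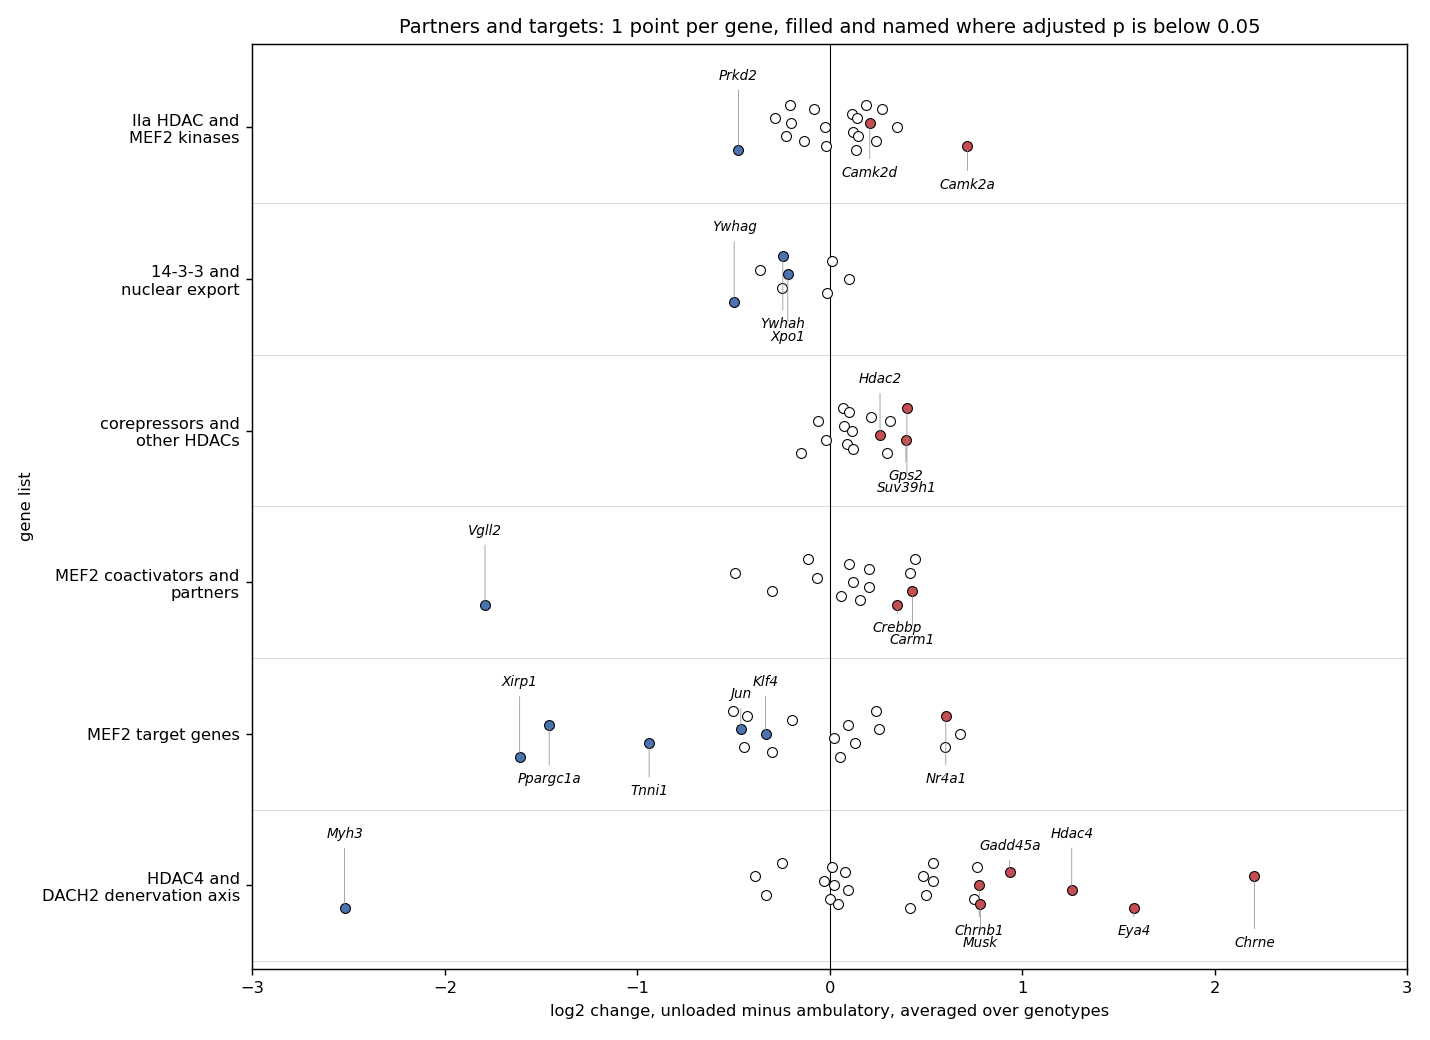
Log2 change with unloading averaged over genotypes (horizontal axis) for each tested gene of 6 lists, with 1 point per gene; filled and named points have an adjusted p below 0.05. Among the filled points Myh3, Vgll2, Xirp1 and Ppargc1a lie lowest and Chrne, Eya4 and Hdac4 highest.

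The circuit that HDAC4 and DACH2 control after nerve loss was given as a list of 25 genes, both included, of which 24 were tested. Averaged over genotypes 6 of the 24 rose and 1 fell, where 14.2% and 14.3% of all tested genes did. Together that is a share near the 28.5% of all tested genes called. The list's median was 0.45 against -0.01 over all tested genes. Hdac4 is 1 of the 6. Eya4, a transcription cofactor that pairs with DACH proteins, rose from 14.6 ± 2.91 to 42.7 ± 10.2 CPM in controls and from 16.4 ± 5.41 to 49.7 ± 9.12 CPM in mKO mice. Its log2 changes were 1.55 (edgeR adjusted p = 2.39e-05) and 1.61 (edgeR adjusted p = 3.48e-05). Within controls 3 of the 24 rose and 1 fell, and within mKO mice 5 rose and 1 fell. For Eya4 in both genotypes the lowest unloaded value, 25.8 and 39.8 CPM, lay above the highest ambulatory value, 18.1 and 23.0 CPM.

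Gadd45a, a stress gene induced by HDAC4 in denervated muscle, rose by 0.93 ± 0.20 SE (edgeR adjusted p = 0.000709). It passed in controls (0.99, adjusted p = 0.0202) and in mKO mice (0.88, adjusted p = 0.0476), the latter in 7 of the 30 fits that left out 1 library and not without AMB mKO replicate 2 (0.73, adjusted p = 0.0798). The synaptic genes Chrnb1 (0.78 ± 0.16 SE) and Chrne (2.21 ± 0.65 SE), subunits of the acetylcholine receptor, and Musk (0.78 ± 0.23 SE), its clustering kinase, rose as well (edgeR adjusted p = 0.000721, 0.0113 and 0.0131). These 3 genes were named to complete the count. Within mKO mice Chrnb1 (1.04, adjusted p = 0.00764) and Chrne (3.14, adjusted p = 0.0439) passed, Chrne in 15 of the 30 such fits and not without AMB mKO replicate 2 (2.92, adjusted p = 0.0731). Myh3, embryonic myosin, fell from 104 ± 56.4 to 14.8 ± 4.57 CPM in controls and from 121 ± 77.2 to 28.0 ± 19.7 CPM in mKO mice (log2 -2.74 and -2.30, edgeR adjusted p = 0.000888 and 0.00767).

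The central genes of that circuit, named here outside the naming rule after their values were seen, did not pass averaged over genotypes. Myog, myogenin, measured 3.32 ± 1.20, 4.03 ± 3.04, 3.97 ± 0.516 and 3.84 ± 1.88 CPM in AMB Ctrl, AMB mKO, HU Ctrl and HU mKO, with a log2 change of 0.10 ± 0.27 SE (edgeR adjusted p = 0.824). The receptor gene Chrna1 stood at 0.76 ± 0.35 SE (adjusted p = 0.102). The ubiquitin ligase genes Fbxo32 and Trim63 stood at 0.54 ± 0.25 SE (adjusted p = 0.113) and -0.25 ± 0.25 SE (adjusted p = 0.494). Without AMB mKO replicate 2, Chrna1 passed (log2 0.63, adjusted p = 0.0439).

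Fibre-type genes give the setting of these changes. Of 12 slow-fibre genes none passed in either genotype alone, and 5 fell averaged over genotypes with none rising. Without AMB mKO replicate 2, 6 of the 12 fell in each genotype and 8 averaged over them. Of all tested genes 15.7% were then called in controls, 13.5% in mKO mice and 34.1% averaged over genotypes, in either direction. Of 13 fast-fibre genes 6 rose and 1 fell averaged over genotypes, where 14.2% and 14.3% of all tested genes did. The one that fell was Myh2, the myosin of fast oxidative fibres (log2 -2.56 ± 0.41 SE, edgeR adjusted p = 3.51e-05).

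Across the 30 libraries, after subtracting each group's mean log2 CPM, the members' levels did not move as a block. The libraries also differed in depth, title letter and summed muscle fibre markers, and the correlations carry no test. Outside AMB mKO replicate 2 the fibre marker sums ran from 98171 to 341340 CPM. Their part in the correlations was not tested. With AMB mKO replicate 2 left out (29 libraries) and letter means also subtracted, Mef2a and Mef2c varied together (Pearson r of 0.91), as did Hdac5 and Mef2d (0.87) and Mef2c and Dach2 (0.71). Hdac7 ran against Mef2a (-0.73), Mef2c (-0.68) and Dach2 (-0.62).

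The genes whose level was most like Hdac4 within groups were Msrb1, Ccdc124 and Epop (r of 0.84, 0.83 and 0.83 over 30 libraries), and without subtracting group means Ddit4l, Phkg1 and Kif28 (0.91, 0.90 and 0.90). The nearest within groups to Hdac7 were Chpf2, Sipa1 and Ccdc102a (0.92, 0.91 and 0.90), to Mef2a Xpr1, Ubxn2a and Rtraf (0.96, 0.95 and 0.94), and to Hdac5 Pias4 and Rxrb (0.95 and 0.94). For Mef2c they were Msi2 (0.99), for Mef2d Fem1a and Dmpk (0.98 each), for Dach2 Gfm2 and Fam210a (0.93 each), and for Hdac9 Pde4b and Bhlhe40 (0.86 and 0.85). Without AMB mKO replicate 2 the within-group value of Pde4b with Hdac9 stood at 0.74 and that of Msrb1 with Hdac4 at 0.78. Gfm2 with Dach2 then stood at 0.88 and Msi2 with Mef2c at 0.96.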

How the data were processed

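RNA of the soleus was sequenced in 30 libraries, with a directional total RNA kit per the labels' protocols. The deposited table holds raw counts, with a column for each library and a row for each Ensembl gene. The submitters' processing notes list featureCounts 1.6.3 and STAR 2.7.9a, besides cutadapt 1.16 and DESeq2 1.34.0, with builds GRCm39 and mm39. Whether counting used strand is not given in the sources used here. An overlapping antisense gene could therefore add reads to a member. Protocol texts that speak of people and myotubes were not used.

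Counts were normalised by TMM and fitted in edgeR 4.0.16 (R 4.3.3), with filterByExpr by group, a quasi-likelihood model of 4 groups and sex over all 30 libraries, and robust dispersion. Called means a Benjamini-Hochberg adjusted p below 0.05 over the 16932 genes tested. There were 8 comparisons: genotype in each loading state and averaged, unloading in each genotype and averaged, their interaction, and sex. Values after ± are SE beside log2 changes and SD beside CPM. Alternatives used DESeq2 1.42.0, limma 3.58.1, other scaling and filters, sex out, the title letter as a covariate, compared groups only, and each library left out. The procedure was also run on simulated counts, for unloading in controls only. Those counts had the same dispersion for every gene, and no effect of sex or title letter and no outlying library. Kilobases are the exon union of GENCODE M21.

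The naming rule took all 8 members, up to 4 called genes of each list with the smallest p (up to 2 uncalled where none was called), the paralogues Mef2b and Dach1, both AMPK genes, and the genes most correlated with each member. The members and lists were chosen with earlier results of these data known. No label says outright that replicates are separate animals, so the p-values measure the spread between these libraries. The counts of all 98 within-group pairs of libraries differed by more than sampling noise.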

Additional observations from a re-analysis of the deposited data

Results flagged for a closer look

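Each member's CPM and 4 summed marker levels were checked in each of the 4 groups for a library far from the rest of its group, 48 checks in all, of which chance alone would mark about 1 in 20. No member value stood out in this way. AMB mKO replicate 2 stood out on 3 marker sums: muscle fibre markers at 9647 CPM (next lowest in the group 217523), adipocyte markers at 9365 CPM (next highest 1723) and fibro-adipogenic progenitor markers at 8612 CPM (next highest 2720). HU mKO replicate 4 was highest in endothelial markers, at 891 CPM (next highest 719) and at 59.4 CPM of Hdac7 the highest of its group. AMB mKO replicate 2 went the other way, with the lowest endothelial sum of its group, 636 CPM, beside 87.0 CPM of Hdac7. No member passed the test of a difference in unloading response between genotypes.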

How the results depend on the processing

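Hdac4 was called in controls, in mKO mice and averaged over genotypes under every alternative run, each library left out included, and Mef2a was called averaged over genotypes under all of them. Members called with unloading in controls numbered 1, and 2 with limma. In mKO mice the number was 2, and 1 with limma, with no low-count filter, with the compared groups alone, with AMB mKO replicates 2 and 4 left out together, and with replicate 2 left out and the title letter as a covariate. It ran from 1 to 3 with 1 library left out. The last 2 of these settings were chosen after seeing the data.

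All genes called with unloading in controls numbered 1882. The count was 3409 with limma, 1225 with no filter, 3098 with the compared groups alone, 3169 without AMB mKO replicates 2 and 4, 3355 without replicate 2 and with the letter, and 1264 (without AMB Ctrl replicate 7) to 2685 (without AMB mKO replicate 2) with 1 library left out. In mKO mice the count was 1702. It was 2781 with limma, 987 with no filter, 2591 with the letter, 608 with the compared groups alone, and 954 (without HU mKO replicate 5) to 2302 (without AMB mKO replicate 2) with 1 library left out. For genotype in ambulatory mice 3 genes were called, 9 with DESeq2, 1 with the compared groups alone and 2 to 5 with 1 library left out. For genotype averaged over loading 3 were called, 6 with DESeq2 and 5 without AMB mKO replicate 2 and with the letter. For sex 36 were called, 126 with DESeq2, 55 with the letter and 27 to 73 with 1 library left out. The cause was not tested.

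The following values, none of them called, changed sign. With limma the log2 difference of Hdac7 between genotypes in ambulatory mice was -0.18, Mef2d with unloading was 0.061 in controls and -0.00349 in mKO mice, the interaction was 0.018 for Hdac7 and -0.055 for Mef2a, and Trim63 averaged over genotypes was 0.0012. With the letter, Mef2c in controls was -0.013. Without AMB mKO replicates 2 and 4, Hdac7 between genotypes in ambulatory mice was -0.18, Mef2d and Dach2 in mKO mice were -0.070 and -0.013, and the interaction was 0.056 for Hdac7 and -0.072 for Mef2a. Without replicate 2 and with the letter, Mef2d in mKO mice was -0.015. With 1 library left out, Hdac5 in mKO mice ran from -0.038 to 0.19, Mef2d from -0.13 to 0.25 in mKO mice and -0.21 to 0.012 in controls, Hdac9 in controls from -0.012 to 0.28, and Myog averaged over genotypes from -0.022 to 0.27. No paired analysis was possible because the labels carry no replicate numbers shared between groups.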
